A study of Mus musculus with 6 samples.

Results

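Activity-regulated immediate early genes were examined in the hippocampus of newborn *Mov10* Deletion and WT mice. The genes were chosen with earlier results of these data known, but with no threshold on a measured value. The 10 genes were named members of this class: *Fos*, *Fosb*, *Junb*, *Egr1*, *Egr2*, *Egr3*, *Egr4*, *Arc*, *Npas4* and *Dusp1*. They were taken from the 52230 mouse genes with a transcript in the data, of which 29469 had any count, and all 10 were among the 16745 genes that passed the expression filter (CPM, read counts scaled to library size, of 0.25 or more in at least 3 libraries). MOV10, an RNA helicase, works with Argonaute proteins in silencing by microRNAs, and the study also describes it as shielding some mRNAs from the Argonaute protein AGO2. The study asked which mRNAs differ at steady state when MOV10 is depleted in the brain.

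Poly(A)-selected, strand-specific RNA-seq was performed on 6 libraries from hippocampi at postnatal day 0 (P0), 3 labelled *Mov10* Deletion and 3 labelled WT, each from a pool of at least 2 pups. The *Mov10* Deletion mouse carries a *Mov10* allele with exons 6 and 7 flanked by LoxP sites, Cre recombinase expressed from the *Emx1* gene, and a germline mutant *Mov10* allele contributed by a heterozygous parent. WT mice are named as C57BL/6 in the study, and no source used here gives the sex or litter of the pups. *Emx1*-driven Cre is active in progenitors of the dorsal forebrain and the excitatory neurons they form. Interneurons, microglia and vessel cells of a *Mov10* Deletion pup are thus not targeted by the conditional deletion, but they carry the germline mutant allele.

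Immediate early genes are transcribed within minutes of a stimulus, without new protein synthesis, from promoters held ready by the transcription factors CREB and SRF. In neurons the stimulus is calcium entry after synaptic activity, and their mRNAs are short-lived. Many encode transcription factors that switch on a later set of genes, while others, such as *Arc*, act directly at the synapse.

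Letters of the CREB and SRF sites in the promoters of these genes are shown first. The cAMP response element, the CREB site, has the core letters TGACG, and the CArG box is the SRF site. Promoter windows of 300 bases (250 before and 50 after the RefSeq start, from a RefSeq table of build GRCm38.p6) were held for 7 of the 10 genes: *Fos*, *Fosb*, *Junb*, *Egr2*, *Egr4*, *Npas4* and *Dusp1*. One stretch of 30 bases is given per gene, read 5′ to 3′ on the strand of the gene, with the matched motif in capitals.
Fos: agttccgcccagTGACGtaggaagtccatc
Fosb: tggagttgcgggTGACGcaagcgcgggggc
Junb: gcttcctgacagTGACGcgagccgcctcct
Egr2: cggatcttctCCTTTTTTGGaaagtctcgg
Egr4: tttggtcatttaCGTCAcggcgccagggcc
Npas4: gacgtcacgggaTGACGtcggaagtctggg
Dusp1: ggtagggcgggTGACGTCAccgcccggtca
The capitals mark TGACG in *Fos*, *Fosb*, *Junb* and *Npas4*, the same letters read from the opposite strand in *Egr4*, the complete palindrome TGACGTCA in *Dusp1* and a CArG box in *Egr2*.

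Each stretch was found at 1 place on its chromosome in GRCm39. The *Fos* stretch lies at chr12:85520586-85520615 on the plus strand, the *Fosb* stretch at chr7:19044013-19044042 on the minus strand and the *Junb* stretch at chr8:85705466-85705495 on the minus strand, and none of these is inside an annotated transcript. The *Egr2* stretch (chr10:67373314-67373343, plus strand) comes from 1 of 5 RefSeq windows of the gene, inside introns of Egr2-205 and Egr2-206 and an exon of the opposite-strand gene *Gm66196*. The *Egr4* stretch (chr6:85490663-85490692, minus strand) overlaps the first bases of an exon of Egr4-201, and the *Npas4* stretch (chr19:5040151-5040180, minus strand) lies in an exon of Npas4-201. The *Dusp1* stretch (chr17:26727571-26727600, minus strand) lies in an intron of the long transcript Dusp1-205 and in an exon of the opposite-strand gene *Gm56886*. Searched on both strands, TGACG was present in a window of 7 of the 7 genes, where 23% of all 27025 genes of the table had such a window (20.8% of its 32851 windows). The longer TGACGTCA, which contains TGACG on each strand, was present for *Dusp1* and for 2.03% of all genes, the CArG box for *Egr2*, which has 5 windows, and for 1.81% of genes, and the TATA sequence TATAAA for *Fos* and *Junb* and for 15.7% of genes. A match of letters is a description of the window and was not tested against the expression values.

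The labels were checked on *Mov10* itself, which was lower in every *Mov10* Deletion library than in every WT library. Its CPM were 2.45, 2.14 and 2.09 in *Mov10* Deletion replicates 1, 2 and 3 and 4.81, 4.75 and 4.80 in WT replicates 1, 2 and 3 (log2 fold change -1.11, SE 0.10, limma adjusted p = 0.00115). Reads from all parts of the gene are counted, so the remaining level does not measure the deleted exons. Library totals ran from 71400300 to 86207971 estimated counts. The hippocampal label was met by markers of excitatory neurons, whose summed level was 4371 to 4729 CPM in *Mov10* Deletion and 4192 to 4358 CPM in WT. One library stood apart: *Mov10* Deletion replicate 1 had 367.5 CPM of 8 meningeal fibroblast markers against 105.8 to 163.9 CPM in the others, and 54.9 CPM of 7 choroid plexus markers against 3.61 to 19.2 CPM. Results were therefore also computed without it.

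The immediate early genes moved in both directions in the *Mov10* Deletion hippocampus. *Npas4*, *Arc*, *Egr4* and *Egr3* rose, *Egr1* and *Dusp1* fell, and *Fos*, *Fosb*, *Junb* and *Egr2* did not pass the test. Thus 6 of the 10 genes passed an adjusted p of 0.05 (limma-trend with 2 factors of unwanted variation, Benjamini-Hochberg adjustment over all tested genes), where 24.7% of all tested genes did. The 4 that rose compare with a background of 12.6% and the 2 that fell with one of 12.1%. Under upper-quartile scaling the calls over all genes were 2320 higher and 1491 lower, in place of 2104 and 2033, and the 6 genes kept their calls. The size of the difference exceeded 1.5-fold for 4 of the called genes (*Egr4*, *Npas4*, *Arc* and *Egr1*), against 3.33% of tested genes that were called at that size. The median log2 fold change of the 10 genes was -0.0019, beside 0.0056 over all tested genes, and the median of its absolute size was 0.37 beside 0.13. These comparisons of size were not matched for expression level. Log2 fold changes are less precise at low counts, with an SE of 0.26 for *Fosb* and 0.29 for *Egr2* against 0.05 for *Dusp1*. Their summed level overlapped between genotypes, at 57.6, 56.5 and 51.8 CPM in *Mov10* Deletion and 51.7, 57.5 and 51.4 CPM in WT. In such bulk tissue, fewer cells of a type and less RNA per cell cannot be told apart.

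**Figure D1:**
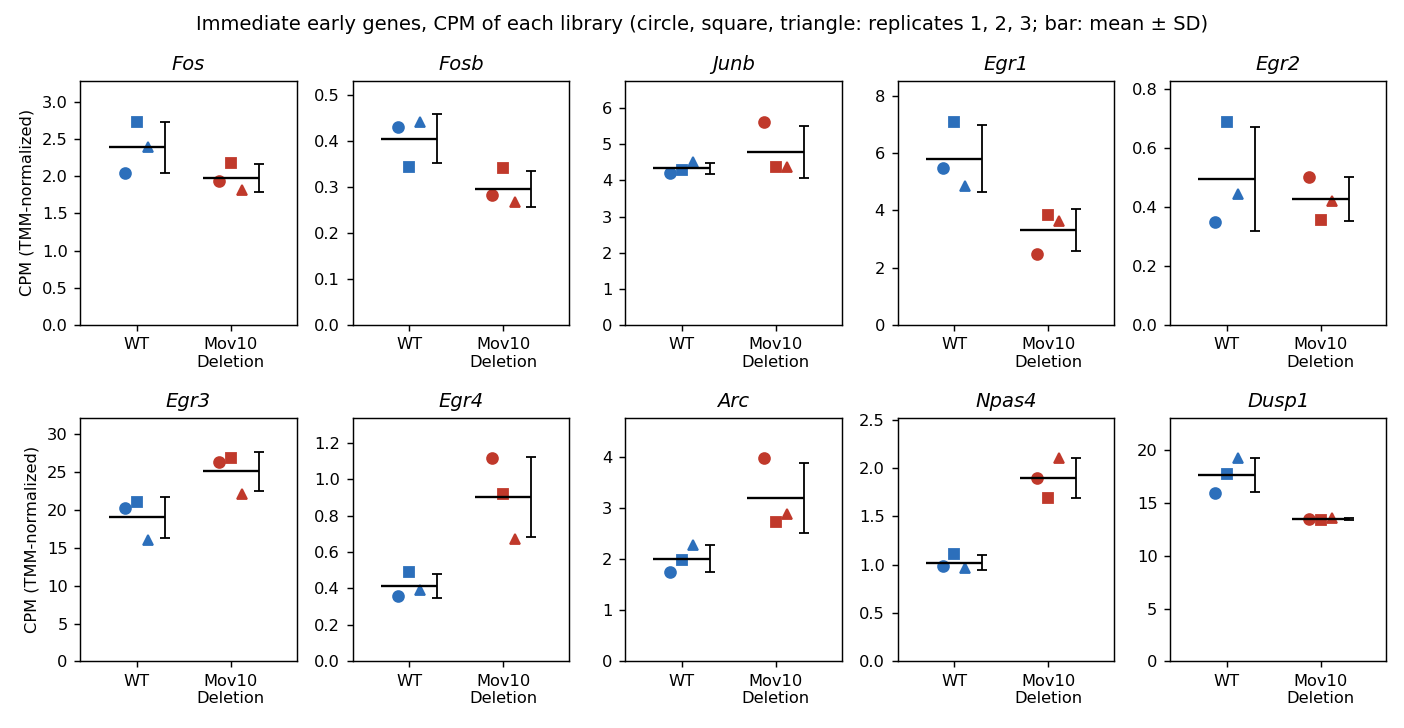
TMM-normalized CPM of the 10 immediate early genes in each library (circle, square and triangle for replicates 1, 2 and 3, horizontal bar for the mean, error bar for the SD, axes from 0). The 3 *Mov10* Deletion libraries lie above the 3 WT libraries for *Egr3*, *Egr4*, *Arc* and *Npas4* and below them for *Fosb*, *Egr1* and *Dusp1*, and the groups overlap for *Fos*, *Junb* and *Egr2*.

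In 7 of the 10 genes the 3 *Mov10* Deletion values lay wholly above or wholly below the 3 WT values, where 41.6% of tested genes did so. The 4 genes higher in *Mov10* Deletion compare with 20.4% of tested genes and the 3 lower with 21.2%. These were the 6 called genes and *Fosb*. All 6 calls were also made without *Mov10* Deletion replicate 1 and with no factors in the model. Without that replicate 15.6% of tested genes were called higher and 15.2% lower. Without factors limma-trend called 21.0% of tested genes (11.0% higher and 9.96% lower), and edgeR's quasi-likelihood test, which made the same 6 calls, 20.8% (10.9% higher and 9.88% lower). None was made when the expression filter was dropped and 29469 genes were tested, where the adjusted p of the 6 genes lay between 0.0533 (*Npas4*) and 0.106 (*Arc*) and the unadjusted p of all 6 was under 0.05. The fit left 2 residual degrees of freedom, and its p-values measure only the spread between pools that the 2 factors did not take up.

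*Fos* encodes the founding member of the AP-1 family, a leucine zipper protein that binds DNA as a dimer with a JUN protein. Its CPM were 1.93, 2.19 and 1.82 in *Mov10* Deletion replicates 1, 2 and 3 and 2.04, 2.74 and 2.39 in WT. The ranges overlapped, since *Mov10* Deletion replicate 2 exceeded WT replicate 1. The means were 1.98 ± 0.19 and 2.39 ± 0.35 CPM (SD, n = 3 each), and the log2 fold change of -0.23 (95% interval -0.58 to 0.12) did not pass (limma adjusted p = 0.303). The interval leaves room for a fall to 0.669 of the WT level or a rise to 1.09 times that level.

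*Fosb* encodes a relative of FOS, and its truncated splice form is known for building up after repeated stimulation. It was the gene with the fewest reads, between 19 and 37 counts per library. Its CPM were 0.281, 0.340 and 0.266 in *Mov10* Deletion and 0.430, 0.344 and 0.442 in WT, so the groups did not overlap. The separation rested on a narrow gap, because *Mov10* Deletion replicate 2 and WT replicate 2 each held 26 counts. The log2 fold change of -0.40 (SE 0.26, 95% interval -1.0 to 0.20) did not pass (limma adjusted p = 0.286), and the counting error alone was 22.9% of the value in the library with the fewest reads.

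*Junb* encodes a JUN family partner that tempers the activity of c-JUN. Its CPM were 5.63, 4.36 and 4.37 in *Mov10* Deletion and 4.21, 4.29 and 4.51 in WT. The values overlapped, and *Mov10* Deletion replicate 1 was the highest of the 6 libraries. The log2 fold change was 0.13 (SE 0.09, 95% interval -0.07 to 0.34, limma adjusted p = 0.302), and it was 0.03 without that library. *Junb* overlaps *Prdx2* on the opposite strand, a gene with 18090.17 to 23854.07 counts per library, and the part of such reads in the *Junb* values was not tested.

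None of the 3 AP-1 genes thus passed the test. Of related leucine zipper genes outside the 10, *Jun*, *Jund* and *Fosl2* fell, while *Maff* (log2 fold change 0.17, limma adjusted p = 0.488), *Batf3* (0.12, limma adjusted p = 0.743), *Atf3* (-0.07, limma adjusted p = 0.863) and *Jdp2* (0.02, limma adjusted p = 0.911) did not pass. *Fosl1* and *Batf* were too low to be tested.

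The EGR genes encode zinc finger transcription factors that bind the same GC-rich element. The 4 genes gave different results in the same libraries: *Egr1* fell, *Egr3* and *Egr4* rose, and *Egr2* did not pass.

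*Egr1*, on chromosome 18, is the family member most widely used as a marker of neuronal activity and is needed for long-lasting synaptic plasticity. Its CPM were 2.48, 3.85 and 3.63 in *Mov10* Deletion and 5.47, 7.10 and 4.84 in WT, from 202.5 to 293.8 and 372.3 to 537.0 counts. Every *Mov10* Deletion library was below every WT library, and replicate 1 of *Mov10* Deletion was the lowest. The means were 3.32 ± 0.74 and 5.81 ± 1.17 CPM (SD, n = 3 each). *Egr1* fell by 0.82 on the log2 scale (SE 0.16, 95% interval -1.19 to -0.46, limma adjusted p = 0.00992), which is 1.77-fold lower. Without *Mov10* Deletion replicate 1 the log2 fold change was -0.66 (limma adjusted p = 0.00474), and without factors it was -0.81 (limma adjusted p = 0.0161).

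*Egr2* (Krox20) is best known from hindbrain segmentation and from myelinating Schwann cells, and it is also induced by activity in forebrain neurons. Its CPM were 0.502, 0.354 and 0.420 in *Mov10* Deletion and 0.348, 0.688 and 0.442 in WT, from 27 to 52 counts. The groups overlapped, and WT held both the highest library (replicate 2) and the lowest (replicate 1). The log2 fold change of -0.14 (SE 0.29, 95% interval -0.80 to 0.52) did not pass (limma adjusted p = 0.754). Its sign turned to 0.14 without WT replicate 2, so no direction could be given at this depth.

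*Egr3*, at positions 70314350 to 70320063 of chromosome 14 (GRCm39, plus strand), is induced by activity like *Egr1* and is needed for muscle spindle development. Its CPM were 26.3, 26.8 and 22.1 in *Mov10* Deletion and 20.2, 21.0 and 16.0 in WT. All *Mov10* Deletion libraries were above all WT libraries, though the gap between the nearest libraries (22.1 and 21.0 CPM) was smaller than the SD of either group. The means were 25.1 ± 2.57 and 19.1 ± 2.71 CPM (SD, n = 3 each). *Egr3* rose 1.26-fold (log2 fold change 0.33, SE 0.09, 95% interval 0.12 to 0.54, limma adjusted p = 0.0344). With a filter of 1 CPM in place of 0.25 CPM the log2 fold change was 0.38, and the call was lost (limma adjusted p = 0.0623).

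*Egr4* encodes the family member that is most restricted to the nervous system. Its CPM were 1.11, 0.916 and 0.672 in *Mov10* Deletion and 0.360, 0.490 and 0.390 in WT, from 48 to 91 and 30 to 37 counts. The groups did not overlap, and *Mov10* Deletion replicate 1 was the highest. The means were 0.901 ± 0.221 and 0.413 ± 0.068 CPM (SD, n = 3 each). *Egr4* rose 2.07-fold, the largest fold among the 10 genes (log2 fold change 1.05, SE 0.24, 95% interval 0.49 to 1.60, limma adjusted p = 0.0186). Without *Mov10* Deletion replicate 1 the log2 fold change was 0.89 (limma adjusted p = 0.0266).

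**Figure D2:**
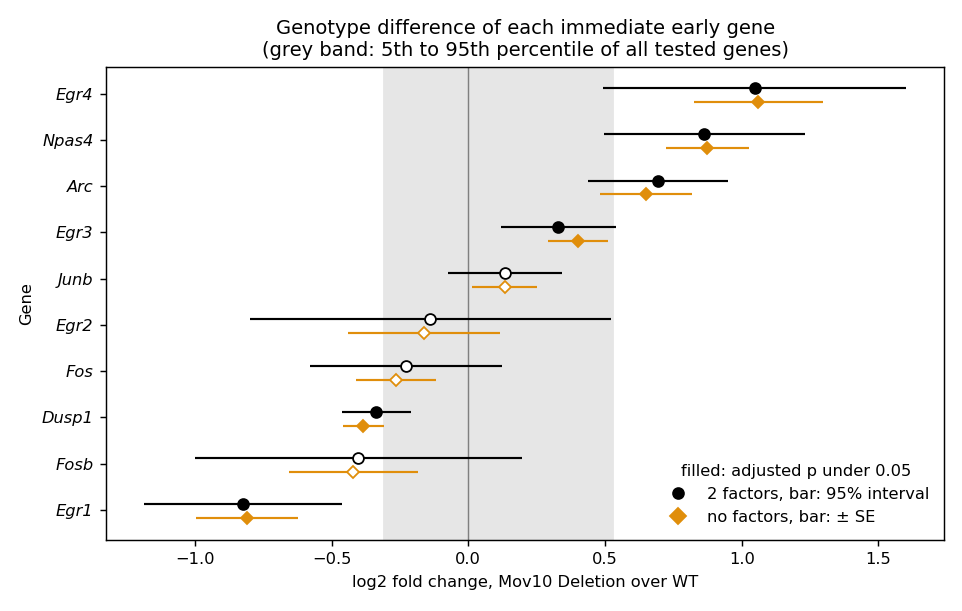
Log2 fold change of each immediate early gene, *Mov10* Deletion over WT, from limma-trend with 2 factors (black circles with 95% intervals) and without factors (orange diamonds with SE). Symbols are filled where the adjusted p is under 0.05, and *Egr4*, *Npas4* and *Arc* lie above the grey band that holds the 5th to 95th percentile of all tested genes (-0.31 to 0.53), while *Egr1*, *Fosb* and *Dusp1* lie below it.

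*Npas4* encodes a neuron-specific bHLH-PAS transcription factor that is induced selectively by calcium entry and that shapes inhibitory synapses. Its CPM were 1.90, 1.69 and 2.10 in *Mov10* Deletion and 0.987, 1.11 and 0.963 in WT, from 129 to 155 and 74 to 85 counts. The groups were well apart, since the lowest *Mov10* Deletion library was 1.69 CPM and the highest WT library 1.11 CPM. The means were 1.90 ± 0.21 and 1.02 ± 0.08 CPM (SD, n = 3 each). *Npas4* rose 1.82-fold (log2 fold change 0.86, SE 0.16, 95% interval 0.50 to 1.23, limma adjusted p = 0.00904), and the log2 fold change was 0.87 both without *Mov10* Deletion replicate 1 and without factors.

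*Arc* encodes a capsid-forming protein of the postsynapse that drives the removal of AMPA receptors from the membrane. The gene lies at positions 74540932 to 74544419 of chromosome 15 (GRCm39, minus strand). Its CPM were 3.97, 2.72 and 2.87 in *Mov10* Deletion and 1.75, 1.98 and 2.28 in WT. The groups did not overlap, and replicate 1 was the highest *Mov10* Deletion library by more than 1 CPM. The means were 3.19 ± 0.68 and 2.00 ± 0.26 CPM (SD, n = 3 each). *Arc* rose 1.62-fold (log2 fold change 0.69, SE 0.11, 95% interval 0.44 to 0.95, limma adjusted p = 0.00559). Without *Mov10* Deletion replicate 1 the log2 fold change was 0.55 (limma adjusted p = 0.0118).

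*Dusp1* encodes a nuclear phosphatase that removes the activating phosphates from MAP kinases and so damps the signal that induced it. Its CPM were 13.5, 13.3 and 13.5 in *Mov10* Deletion and 15.9, 17.8 and 19.2 in WT. The *Mov10* Deletion libraries were nearly equal, the WT libraries were spread over a wider range, and the groups did not overlap. The means were 13.5 ± 0.11 and 17.6 ± 1.65 CPM (SD, n = 3 each). *Dusp1* fell by 0.34 on the log2 scale (SE 0.05, 95% interval -0.46 to -0.21, limma adjusted p = 0.00602), which is 1.26-fold lower. *Dusp1* overlaps *Ergic1* on the opposite strand, with 12016.79 to 15896.96 counts per library, whose part was not tested either.

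The libraries were not uniformly high or low in these genes. *Mov10* Deletion replicate 1 was the highest of the 6 libraries for 3 genes (*Junb*, *Egr4* and *Arc*) and the lowest for 1 (*Egr1*). WT replicate 2 was the highest for 3 genes (*Fos*, *Egr1* and *Egr2*), and WT replicate 1 was the lowest for 4 (*Junb*, *Egr2*, *Egr4* and *Arc*). Within *Mov10* Deletion, *Arc* and *Egr4* stood highest in the library in which *Egr1* stood lowest.

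**Figure D3:**
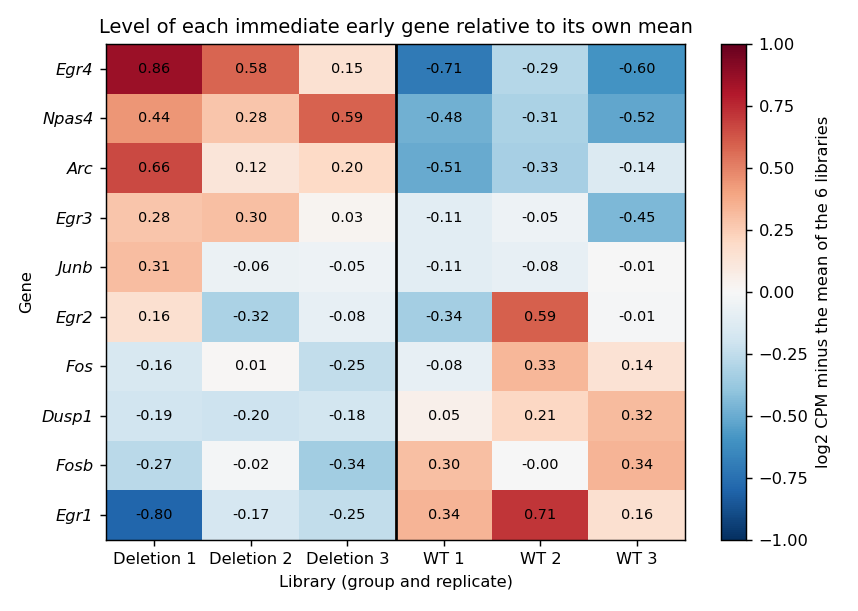
Heat map of log2 CPM of each immediate early gene in each library minus that gene's mean over the 6 libraries (red above the mean, blue below, values printed in the cells). The cells of *Egr4*, *Npas4*, *Arc* and *Egr3* are positive in all *Mov10* Deletion libraries and negative in all WT libraries, and those of *Dusp1* and *Egr1* are the reverse, while *Egr1* reaches -0.80 in *Mov10* Deletion replicate 1 and 0.71 in WT replicate 2.

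Levels were compared between genes as TPM, a scale that corrects counts for effective transcript length. Over the 6 libraries *Dusp1* had the highest level (19.1 ± 2.60 TPM, SD), followed by *Egr3* (15.4 ± 2.81) and, with no overlap of ranges, by *Junb* (4.58 ± 0.73). *Fos* (2.47 ± 0.35 TPM), *Egr1* (2.17 ± 0.75) and *Arc* (1.57 ± 0.51) came next, and each range overlapped the next. *Npas4* (0.905 ± 0.327 TPM) and *Egr4* (0.745 ± 0.385) also overlapped. *Egr2* (0.366 ± 0.133 TPM) and *Fosb* (0.186 ± 0.035) were the lowest, and their ranges did not overlap. This order pools the genotypes and differed between them. In WT, *Dusp1* (21.3 ± 1.39 TPM, SD, n = 3) exceeded *Egr3* (13.2 ± 2.08) in 3 of 3 libraries, and in *Mov10* Deletion *Egr3* (17.6 ± 1.05) exceeded *Dusp1* (16.8 ± 0.28) in 2 of 3. *Fos* exceeded *Egr1* in 3 of 3 *Mov10* Deletion libraries and in 1 of 3 WT libraries. *Egr1* exceeded *Arc* in 3 of 3 WT libraries and in 2 of 3 of *Mov10* Deletion, where the mean of *Arc* (1.95 ± 0.45 TPM) was above that of *Egr1* (1.61 ± 0.33).

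Most of the gene sums join several transcripts, and the share of each is described here by genotype. *Egr3* counts were shared between the coding transcript Egr3-204 and Egr3-202, which is annotated as a retained intron. Egr3-204 held 56.8% ± 5.38 of the *Egr3* counts in *Mov10* Deletion libraries and 50.4% ± 5.62 in those of WT (SD, 3 libraries each), and Egr3-202 held 38.4% ± 5.78 and 44.9% ± 6.42. The estimated counts of the coding Egr3-204 were 919.1 to 1320 in *Mov10* Deletion and 695.4 to 796.1 in WT, and did not overlap. Those of Egr3-202 were 573.9 to 919.8 and 463.0 to 871.8, and overlapped. These counts are not scaled to library size, and the share of Egr3-204 overlapped between genotypes (50.9% to 61.4% and 45.8% to 56.7%).

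Npas4-201 is the coding transcript of *Npas4*, and Npas4-203 is annotated as a target of nonsense-mediated decay. Npas4-201 held 67.7% ± 12.8 of the counts in *Mov10* Deletion and 66.2% ± 1.96 in WT, a difference smaller than the spread within *Mov10* Deletion. *Arc* counts were mostly on Arc-201 (76.6% ± 10.1 in *Mov10* Deletion and 78.9% ± 13.3 in WT), with the rest on the second coding transcript, Arc-202. Dusp1-202 held 91.6% ± 2.42 and 92.6% ± 0.96 of the *Dusp1* counts, and the retained-intron transcript Dusp1-203 held 5.90% ± 1.46 and 5.52% ± 1.13.

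*Egr1* and *Egr4* were each counted on 1 transcript, and Junb-201 held at least 99.8% of the *Junb* counts in every library. Fos-201 held 96.7% ± 3.52 of the *Fos* counts in *Mov10* Deletion and 98.9% ± 1.17 in WT, with the rest on Fos-203, which has no defined coding sequence. Egr2-201 held 95.4% ± 7.99 and 100% of the *Egr2* counts, and the remainder was 5.67 counts of Egr2-205 in 1 *Mov10* Deletion library. Fosb-201 held 60.3% ± 25.6 and 86.5% ± 7.41 of the *Fosb* counts. The retained-intron transcript Fosb-204 held 23.9% ± 6.01 and 13.5% ± 7.41, and Fosb-205 had 9.02 counts in *Mov10* Deletion replicate 3 and none in the other 5 libraries, a count too low to describe a splice form. Transcript shares are estimates of Salmon for reads that fit several transcripts, and no test was run on them.

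**Figure D4:**
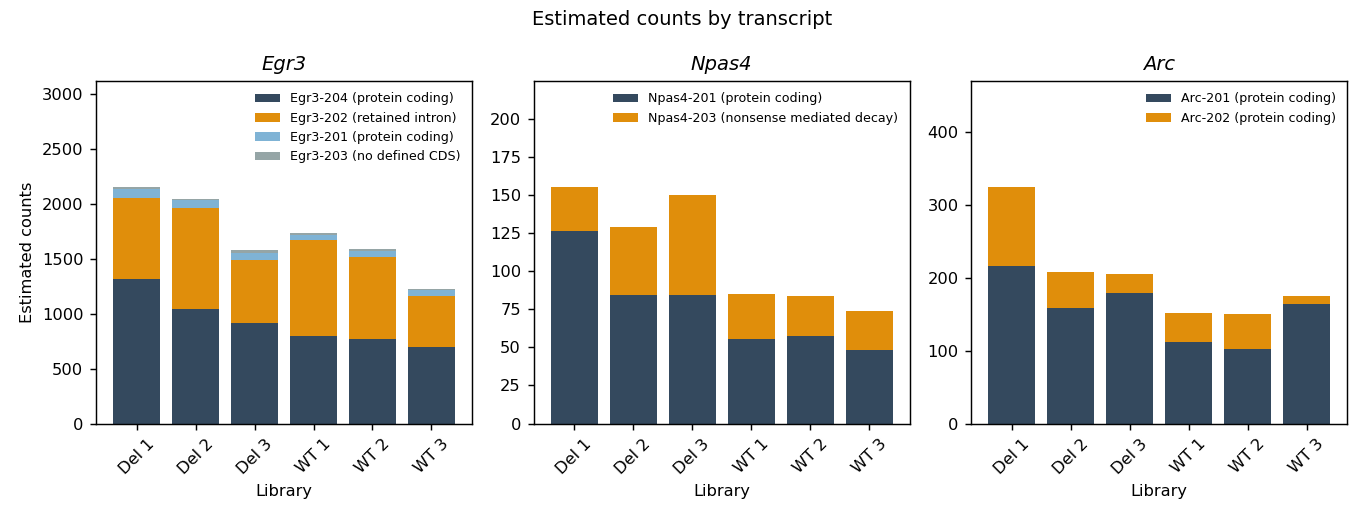
Stacked bars of the estimated counts of each transcript of *Egr3*, *Npas4* and *Arc* in the 6 libraries (Del, *Mov10* Deletion), with the annotated transcript type in the key. The coding Egr3-204 reaches 919.1 to 1320 counts in *Mov10* Deletion and 695.4 to 796.1 in WT, and the retained-intron Egr3-202 forms most of the rest.

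The wider set of immediate early regulators was compared in the same fit. Of 18 genes of this class outside the 10, 17 were tested (*Fosl1* was not), 1 rose (5.88% of those tested, beside 12.6% of all tested genes) and 7 fell (41.2%, beside 12.1%), with a median log2 fold change of -0.15. Their summed level was 938.2, 921.0 and 919.2 CPM in *Mov10* Deletion and 987.7, 984.7 and 986.0 CPM in WT, and did not overlap. Without *Ier5*, the gene with the largest difference in CPM, the sums were 774.0 to 802.4 and 802.4 to 822.9 CPM. *Klf10*, a TGF-beta-inducible zinc finger repressor, was the gene that rose: its CPM were 19.5, 19.9 and 17.9 in *Mov10* Deletion and 12.7, 14.1 and 14.0 in WT (log2 fold change 0.51, SE 0.07, limma adjusted p = 0.00285).

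Among the regulators that fell, *Klf2*, a zinc finger factor known from blood vessel endothelium, had the largest difference. Its CPM were 6.94, 4.88 and 5.41 in *Mov10* Deletion and 7.83, 8.53 and 8.18 in WT (log2 fold change -0.53, SE 0.07, limma adjusted p = 0.00355). *Nr4a2*, an orphan nuclear receptor, gave 11.1, 10.9 and 11.5 CPM against 14.1, 13.9 and 17.1 CPM (log2 fold change -0.37, limma adjusted p = 0.00916). Neither gene overlapped between genotypes. The other AP-1 genes that fell were *Jun* (-0.28, limma adjusted p = 0.00616), *Fosl2* (-0.17, limma adjusted p = 0.0139) and *Jund* (-0.15, limma adjusted p = 0.0247), values being log2 fold changes. *Ier5*, a heat shock factor cofactor, fell by 0.28 (limma adjusted p = 0.00679) and *Per1*, a circadian clock repressor, fell by 0.16 (limma adjusted p = 0.0296), both on the log2 scale. Without factors, 1 rose and 5 fell, with *Fosl2* (limma adjusted p = 0.111) and *Per1* (limma adjusted p = 0.0601) no longer passing. The number that fell was 9 without *Mov10* Deletion replicate 1 (15.2% of all tested genes fell in that fit), 4 without WT replicate 2 (6.89%) and 2 with no filter on low counts (1.63%). Endothelial markers, 10 genes with 278.8 to 342.5 CPM in *Mov10* Deletion and 308.9 to 335.3 CPM in WT, overlapped between genotypes, though *Cldn5* among them fell (log2 fold change -0.39, limma adjusted p = 0.00152), and their part in the *Klf2* value was not tested.

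Among genes that encode later effectors of activity, 21 of 22 were tested (*Ptgs2* was not), and 1 rose and 2 fell (14.3% of those tested, beside 24.7% of all tested genes), with a median log2 fold change of -0.013. Their summed level was 899.3 to 933.6 CPM in *Mov10* Deletion and 936.7 to 946.6 CPM in WT, and the sums overlapped once *Dusp4* was left out (782.8 to 823.3 and 801.1 to 813.0 CPM). *Dusp5*, an ERK phosphatase of the nucleus, rose from 1.49, 2.25 and 1.72 CPM in WT to 2.80, 2.88 and 2.62 CPM in *Mov10* Deletion (log2 fold change 0.64, SE 0.17, limma adjusted p = 0.0312). *Dusp4*, also a nuclear MAP kinase phosphatase, fell by 0.23 on the log2 scale (limma adjusted p = 0.00957), from 130.9, 128.6 and 145.5 CPM in WT to 110.3, 111.3 and 116.5 CPM. *Plat*, tissue plasminogen activator, fell by 0.28 (limma adjusted p = 0.00824), and did not pass without factors (limma adjusted p = 0.0536). Of the MAP kinase phosphatase genes *Dusp1*, *Dusp4*, *Dusp5* and *Dusp6*, 1 thus rose, 2 fell and *Dusp6* did not pass. The effector counts were 4 higher and 4 lower without *Mov10* Deletion replicate 2 (2809 of all tested genes higher and 2988 lower in that fit), and 4 higher and 2 lower without *Mov10* Deletion replicate 3 (2107 and 2160).

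Upstream of the immediate early genes, 34 kinases, transcription factors and coactivators were tested. Of these 3 rose and 4 fell (20.6% in all, beside 24.7% of all tested genes), with a median log2 fold change of 0.0042. *Creb1*, which encodes CREB, rose from 94.4, 86.0 and 76.6 CPM in WT to 113.1, 100.5 and 109.0 CPM in *Mov10* Deletion (log2 fold change 0.27, SE 0.04, limma adjusted p = 0.00467). *Srf*, which encodes the CArG box factor, rose from 24.7, 25.3 and 24.7 CPM to 31.2, 28.8 and 30.5 CPM (log2 fold change 0.27, SE 0.05, limma adjusted p = 0.00706). Neither gene overlapped between genotypes. *Mrtfb*, an SRF coactivator, also rose (0.15, limma adjusted p = 0.0290), and its relative *Mrtfa* fell by 0.16 (limma adjusted p = 0.0331), a pair of log2 values of which the second did not pass without factors (limma adjusted p = 0.162).

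The CREB coactivator gene *Crtc1* fell from 190.7, 186.2 and 201.1 CPM in WT to 148.7, 168.7 and 171.3 CPM (log2 fold change -0.22, SE 0.04, limma adjusted p = 0.00705). *Elk3*, an SRF partner of the ETS family, fell by 0.21 on the log2 scale (limma adjusted p = 0.0228), and *Prkacb*, a catalytic subunit of protein kinase A, fell by 0.17 (limma adjusted p = 0.0141). Without factors 3 genes of the list rose and 2 fell, and *Elk3* was at a limma adjusted p of 0.0505. The lower count also depended on the libraries: it was 11 without *Mov10* Deletion replicate 2 (2988 of all tested genes lower), 7 without *Mov10* Deletion replicate 3 (2160, with 6 of the list higher) and 1 without WT replicate 2 (1147).

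The protein partners, corepressors and AU-rich mRNA decay factors of the immediate early genes comprised 13 genes, of which 12 were tested and 1 passed (8.33%, beside 24.7%), lower in *Mov10* Deletion. The number that fell was 2 without *Mov10* Deletion replicate 1 or 2 and 3 without *Mov10* Deletion replicate 3 or WT replicate 3. The gene was *Arnt2*, the bHLH-PAS partner of NPAS4, which went from 360.6, 371.6 and 412.0 CPM in WT to 297.9, 328.2 and 326.0 CPM in *Mov10* Deletion, with no overlap (log2 fold change -0.22, SE 0.03, limma adjusted p = 0.00467). *Zfp36l1*, a decay factor of AU-rich mRNAs, was next at a log2 fold change of -0.14 and did not pass (limma adjusted p = 0.0620).

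**Figure D5:**
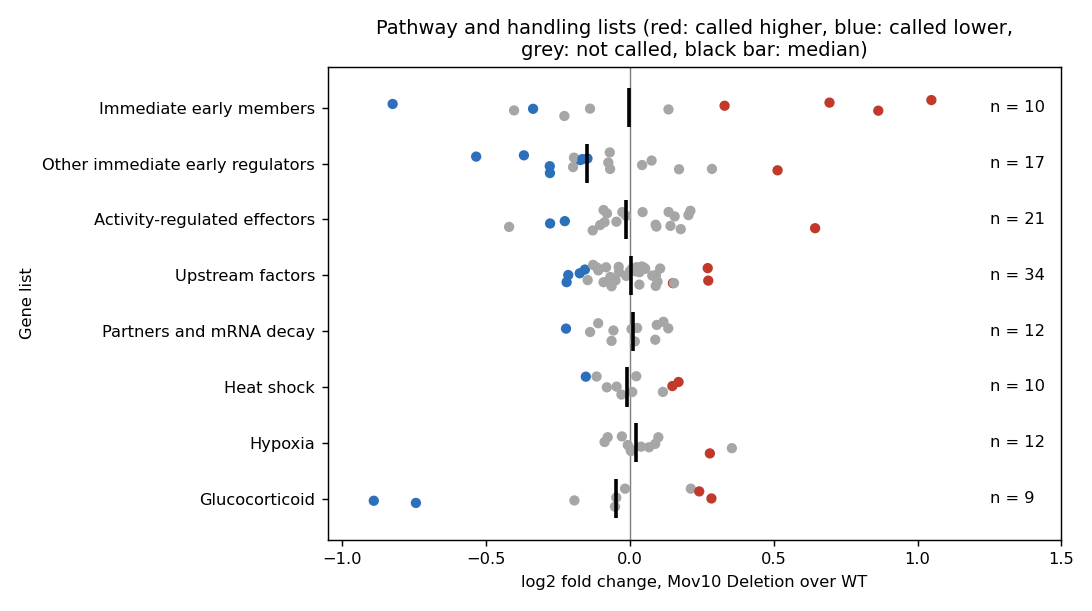
Log2 fold change, *Mov10* Deletion over WT, of each tested gene of the immediate early set, 4 related lists and 3 lists of genes that respond to handling or stress (red, called higher, blue, called lower, grey, not called, black bar, median). The immediate early genes span -0.82 to 1.05 around a median of -0.0019, and the other immediate early regulators have a median of -0.15.

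Genes that respond to the state of the animal and the handling of tissue were examined because immediate early genes respond to both. The background for these counts was 12.6% of all tested genes higher and 12.1% lower (11.0% and 9.96% without factors). Of 10 heat shock genes, 2 rose (*Hsph1*, 0.17, limma adjusted p = 0.0196, and *Hspa8*, 0.15, limma adjusted p = 0.0371) and *Dnajb1* fell by 0.15, as log2 values. Without factors *Hspa8* (limma adjusted p = 0.0528) and *Dnajb1* (limma adjusted p = 0.0503) did not pass. The median log2 fold change of the list was -0.01. Its sum was 3387 to 3562 CPM in *Mov10* Deletion and 3229 to 3309 CPM in WT, a difference carried by *Hspa8*, without which the sums were 1431 to 1540 and 1491 to 1505 CPM. Of 12 hypoxia-induced genes, *Vegfa* rose (0.28, limma adjusted p = 0.0148) and the others did not pass. Of 10 glucocorticoid-induced genes, 9 were tested and 44.4% of those passed, beside 24.7% of all tested genes. *Fkbp5* (0.28, limma adjusted p = 0.00435) and *Errfi1* (0.24) rose, and *Cdkn1a* (-0.74, limma adjusted p = 0.00155) and *Sult1a1* (-0.89) fell, and without factors *Errfi1* did not pass (limma adjusted p = 0.0568). Mitochondrially encoded mRNA held 1.78% to 1.84% of counts in *Mov10* Deletion and 1.23% to 1.59% in WT, with no overlap. No source used here gives the time from birth or death to dissection, and the part of handling in the immediate early values was not tested.

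Markers of other cell types and of the neurons themselves were summed in each library. Their counts of called genes compare with 12.6% of all tested genes higher and 12.1% lower (11.0% and 9.96% without factors in limma). Of 10 astrocyte and radial glia markers, 4 passed, all higher (40.0%, beside 12.6% of all tested genes), with a median log2 fold change of 0.21. They were led by *Fabp7* (0.48, limma adjusted p = 0.0021) and *Aqp4* (1.15, limma adjusted p = 0.00279). The sum of the 10 markers was 1995 to 2103 CPM in *Mov10* Deletion and 1628 to 1849 CPM in WT. Of 13 excitatory neuron markers *Zbtb20* rose, and the median log2 fold change was -0.058. Their sum, given above, did not overlap with *Zbtb20* and overlapped without it (2821 to 2996 CPM in *Mov10* Deletion and 2878 to 3002 CPM in WT). Of 10 interneuron markers *Sst* rose, which did not pass without factors (limma adjusted p = 0.0970), and *Dlx1* fell, and the sums overlapped at 347.3 to 414.2 and 380.5 to 404.9 CPM. Of 8 pericyte and smooth muscle markers 2 rose and 1 fell, against 1 and 0 without factors in limma. Their sums were 246.4 to 272.9 CPM in *Mov10* Deletion and 220.5 to 235.2 CPM in WT, and overlapped without *Rgs5* (85.0 to 94.8 and 84.7 to 90.6 CPM). Oligodendrocyte and Schwann cell markers (1 rose and 1 fell of 7 tested, and 1 rose without factors), Cajal-Retzius markers (1 of 5 rose, with and without factors) and erythroid genes (3 of 6 tested fell, and 1 without factors) overlapped in sum. Of 11 microglial and macrophage markers, whose sums also overlapped, *Mrc1* rose, at 12.8 CPM in *Mov10* Deletion replicate 1 and 4.53 and 6.14 CPM in the other *Mov10* Deletion libraries, and did not pass without factors (limma adjusted p = 0.155). Meningeal and choroid plexus markers were highest in *Mov10* Deletion replicate 1. Of 8 meningeal markers 2 rose and 1 fell, and *Ttr* fell among 6 choroid plexus markers tested, but without factors *Lum* (limma adjusted p = 0.124), *Slc6a13* (limma adjusted p = 0.447), *Foxc1* (limma adjusted p = 0.387) and *Ttr* (limma adjusted p = 0.619) did not pass. The part of any of these cell types in the values of the immediate early genes was not tested.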

How the data were processed

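Libraries were made by the authors with a stranded mRNA kit and quantified with Salmon 1.4.0 against a mouse transcriptome with the GRCm39 genome as decoy. No source used here names the annotation release. The deposited estimated counts per transcript are raw and can be fractions. The TPM values the authors deposited correct for effective length and library size. Columns of the authors' own comparisons were not used.

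Of 139225 transcripts per file, 137570 matched GENCODE M39, and the rest held 0.589% to 0.600% of counts and were left out. Counts and TPM were summed per gene. As in the study's methods, genes at 0.25 CPM or more in at least 3 libraries (16745, with 99.9% of gene counts) were TMM-normalized and tested by limma-trend with 2 factors of unwanted variation. The study names RUVSeq but no function, and RUVs, with all tested genes as controls, was written out in R. The prior count was 2 and p was adjusted by Benjamini-Hochberg at 0.05 (R 4.3.3, limma 3.58.1, edgeR 4.0.16). Intervals are 95% intervals of the moderated fit with 5.89 prior degrees of freedom. Counting errors cover counting only, since reads are not independent molecules. Counts were rounded for edgeR and DESeq2 1.42.0. CPM are not corrected for the factors.

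The 10 genes, the 18 other lists and the tests were chosen with earlier results of these data known, as was the rule for named genes: the 10 genes and their transcripts with at least 5% of the counts, *Mov10*, the called genes of the regulator and effector lists, the 2 genes with the smallest p of each other list, and the genes nearest in pattern. Further called genes of the upstream, heat shock, glucocorticoid and meningeal lists, and the leucine zipper genes that did not pass, were named after their values were seen, as was *Junb*'s neighbour *Prdx2* and *Dusp1*'s neighbour *Ergic1*. Groups and replicate numbers came from the sample titles. Deviations from the group means of libraries with the same number correlated at 0.011, -0.071 and 0.043 (across genes), and the main fit treated the samples as unpaired. So few libraries cannot show whether samples with the same number shared a litter or a day. No pair of libraries in a group agreed within sampling noise (chi-square per degree of freedom 7.91 to 23.7).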

Additional observations from a re-analysis of the deposited data

How the results depend on the processing

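The 10 immediate early genes were refitted under 19 other settings. With no filter on low counts, 445 tested genes called higher and 480 tested genes called lower were found among 29469, and 0 immediate early genes were called in either direction, while 6 of the 10 had an unadjusted limma p under 0.05, and the limma values of the 6 genes were *Egr1* -0.81 (adjusted p = 0.101), *Egr3* 0.40 (0.0681), *Egr4* 1.06 (0.0722), *Arc* 0.64 (0.106), *Npas4* 0.86 (0.0533) and *Dusp1* -0.39 (0.0625). With a filter at 1 CPM, 14478 genes were tested, and *Fosb*, *Egr2* and *Egr4* were not among them. Of the immediate early genes 2 were higher and 2 lower, beside 13.5% and 12.7% of all tested genes. *Egr3* did not pass (0.38, limma adjusted p = 0.0623). DESeq2 with 2 factors gave no adjusted p for *Fosb*, *Egr2* and *Egr4*, and called 3 higher and 2 lower, beside 8.65% and 9.66% of all tested genes. The sign of *Egr2* turned under length-scaled TPM (0.029), and without each library in turn its log2 fold change ran from -0.40 to 0.14, the highest without WT replicate 2. Leaving out 1 library moved the tested genes called lower between 1147 (without WT replicate 2) and 2988 (without *Mov10* Deletion replicate 2), and kept each of the 6 calls. A fit with the replicate number as a block and no factors had 1857 tested genes called higher and 1568 called lower, with the same calls for all 10 immediate early genes. The cause of these shifts was not tested. Below about 1 CPM the counts limit what can be seen: *Fosb* and *Egr2* rest on 19 to 52 counts per library. The called *Egr4* rests on 30 to 91 counts, with a counting error of 18.3% of the value in the library with the fewest reads.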

Other observations

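The genes whose log2 CPM, centred over the 6 libraries, lay nearest to the mean of the 10 immediate early genes were *Scarb1* (root-mean-square difference 0.027), *Ndufaf2* (0.036), *Anapc13* (0.037), *Tekt1* (0.040) and *Setdb2* (0.040), out of 13377 protein-coding genes that averaged 1 CPM or more. Since that mean joins genes that rose with genes that fell, single genes were also used. Nearest to *Fos* were *Pemt* (0.067), *Mt1* (0.072) and *Ggact* (0.072). Nearest to *Arc* were *Stra6* (0.096), *Chrm2* (0.105) and *Col18a1* (0.110). Nearest to *Egr1* were *Lgr6* (0.224), *Actn3* (0.224) and *Cdh23* (0.233). These likenesses rest on 6 libraries and on their depth and genotype, and no test was run.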
